A study of Homo sapiens and Mus musculus with 10 samples.

Results

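Open chromatin of GM12878 was compared with that of HFF1, an immune cell line against a mesenchymal one, in 4 of the 10 libraries and 2 of the 5 lines of the series. GM12878 is a B-lymphoblastoid line, made by infecting B lymphocytes with Epstein-Barr virus, and HFF1 is a line of human foreskin fibroblasts. Each line had 2 replicate libraries and no treatment. GM12878 grew in RPMI-1640 with 15% fetal bovine serum and HFF1 in DMEM with 10%, so medium, serum and line cannot be told apart. Frozen cells of both were thawed, their nuclei were opened with the Omni-ATAC buffer and cut with Tn5, and about 20000 DAPI-stained nuclei were sorted per library. PCR ran for 15 cycles before a gel selection of 200 to 700 bp. Each cell type is stood for by 1 line. The labels do not say whether replicates came from separate cultures, so the spread between them may be technical.

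ATAC-seq reads where the transposase can reach DNA. Start sites of widely used genes are open in most cell types, whereas enhancers, which lie away from start sites and hold binding sites for lineage transcription factors, are mostly open in the cell types that use them. In B cells, PU.1, EBF1, PAX5, IRF4, IRF8 and the OCT2 protein with its cofactor OBF1 act at such elements. In fibroblasts, AP-1, TEAD proteins with YAP, C/EBP and TWIST or PRRX factors act at elements around genes of the extracellular matrix and of the contractile cytoskeleton.

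Peaks of the 4 libraries on the autosomes were merged where they overlapped by at least 1 bp. A region or a gene's promoter was called open in one line only when both libraries of that line had a peak there and neither library of the other line did. A promoter lies within 1 kb of an annotated start site of 1 of 19111 protein-coding genes, and all other regions are called distal. A peak is described by a pair of numbers, both from the authors' deposited lists: the fold of its summit over the local background, and the summit reads, a whole number that the deposited fold and −log10 p-value jointly fix. A region without a peak may still hold reads below the calling threshold.

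The libraries had 98647 and 100631 autosomal peaks in GM12878, and 124544 and 117703 in HFF1. The most common local background among peaks, a value that rises with depth, was 1.71 and 1.73 reads per window in GM12878, and 2.43 and 2.06 in HFF1. This measure of depth moved with the line, and its part in the counts of peaks was not tested beyond the alternatives given here. With 2 libraries against 2, the exact two-sided permutation test cannot go below p = 0.333. All 20 measures tested per library gave an exact permutation p of 0.333 (Benjamini-Hochberg adjusted p = 0.333), and in none did the values of the lines overlap. They were the number of peaks, the length covered, the share of peaks at promoters, the number of genes with a promoter peak, and the shares of distal peaks with each of 16 consensus sequences. The base pairs shared by 2 libraries over those in either were 0.741 within GM12878, 0.694 within HFF1 and 0.230 to 0.233 between the lines. The names given to peaks start with other prefixes in the lists of each line, so whatever these prefixes stand for cannot be told apart from the line.

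The line labels were checked against marker promoters. Promoter peaks were found at all 10 B-cell markers in either GM12878 library and at 5 of them in either HFF1 library. Of 10 fibroblast markers, all 10 had one in either HFF1 library, against 6 and 7 in GM12878. The B-cell markers with a peak in both lines were CD22, PAX5, CD74, HLA-DRA and CIITA. The fibroblast markers with a peak in both were COL1A1, COL1A2, PDGFRA, PDGFRB, THY1 and PRRX1. A promoter peak alone therefore did not separate the lines at these genes.

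Sequences under high-ranked line-only peaks are shown so that the consensus letters counted further on can be seen in place. Each reaches 50 bases to either side of the summit in replicate 1, on the plus strand of GRCh38, with capitals for any of the 16 consensus sequences searched. The first sequences of each line lie under the best-ranked promoter peaks of the immune or mesenchymal gene lists, and the other 3 in each line are the best-ranked distal regions that hold the 3 consensus sequences with the highest ratio of shares between the lines. Summits in annotated UTRs were passed over.
HLA-DQB1 promoter, GM12878 only, 154 bp from the gene's 5′ end, chr6:32668487-32668587: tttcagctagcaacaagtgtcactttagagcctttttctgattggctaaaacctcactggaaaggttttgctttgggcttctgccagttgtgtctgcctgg
JAK1 intron, GM12878 only, PU.1 letters, chr1:64864289-64864389: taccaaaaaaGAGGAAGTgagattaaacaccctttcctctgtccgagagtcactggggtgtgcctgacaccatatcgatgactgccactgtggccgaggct
MYO5A intron, GM12878 only, ETS-IRF letters, chr15:52466265-52466365: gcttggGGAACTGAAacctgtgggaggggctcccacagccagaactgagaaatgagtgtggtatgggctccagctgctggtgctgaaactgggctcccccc
XXYLT1 intron, GM12878 only, AP-1 and OCT letters, chr3:195129713-195129813: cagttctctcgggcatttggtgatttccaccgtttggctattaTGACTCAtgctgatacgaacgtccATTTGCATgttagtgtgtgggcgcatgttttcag
Summit of the peak that overlaps a promoter of shorter MMP2 transcripts, itself more than 1 kb from the start site, HFF1 only, AP-1 letters, chr16:55487230-55487330: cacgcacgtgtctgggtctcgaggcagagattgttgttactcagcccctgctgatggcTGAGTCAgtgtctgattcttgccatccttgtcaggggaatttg
EGFR promoter, HFF1 only, 53 bp from the gene's 5′ end, chr7:55018914-55019014: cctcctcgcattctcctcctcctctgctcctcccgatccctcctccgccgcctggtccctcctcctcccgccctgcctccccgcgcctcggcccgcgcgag
CSTPP1 intron, HFF1 only, TEAD and RUNX letters, chr11:47004855-47004955: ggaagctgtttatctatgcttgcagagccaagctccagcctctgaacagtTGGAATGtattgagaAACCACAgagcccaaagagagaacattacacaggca
CYB561 as nearest gene, between genes, HFF1 only, C/EBP and AP-1 letters, chr17:63460894-63460994: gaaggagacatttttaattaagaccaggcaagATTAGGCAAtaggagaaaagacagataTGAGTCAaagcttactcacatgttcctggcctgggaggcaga
KCNMA1 gene, in an annotated exon that overlaps an antisense gene, HFF1 only, RUNX letters and AP-1 letters at 2 places, chr10:77350843-77350943: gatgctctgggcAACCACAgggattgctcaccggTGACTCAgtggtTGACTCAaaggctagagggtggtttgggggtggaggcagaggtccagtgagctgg
The summit folds were 16.8 and 17.2 at HLA-DQB1 and 9.02 and 9.19 at EGFR in the line that has them. The distal sites had folds of 18.3 and 16.8 in JAK1, a cytokine receptor kinase gene, and 16.9 and 17.4 in KCNMA1, a potassium channel gene. The HLA-DQB1 and EGFR stretches held none of the 16 sequences, which says only that those letters are not in these windows.

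Merging gave 196581 regions, of which 24562 were promoter and 172019 distal. GM12878-only regions numbered 44912 and HFF1-only regions 60603, and 37067 regions had a peak in all 4 libraries. Of the promoter regions, 2540 or 10.3% were GM12878-only and 4522 or 18.4% HFF1-only. Of the distal regions, 42372 or 24.6% were GM12878-only and 56081 or 32.6% HFF1-only. Promoters made up 5.66% of GM12878-only and 7.46% of HFF1-only regions, against 35.7% of the regions open in all 4 libraries. The difference between the lines at distal regions depended on the length of the lists: with the 80000 best-ranked peaks of each library, GM12878-only distal regions numbered 35276 and HFF1-only ones 35411. Promoter regions then numbered 2570 and 3093, still more in HFF1.

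**Figure D1:**
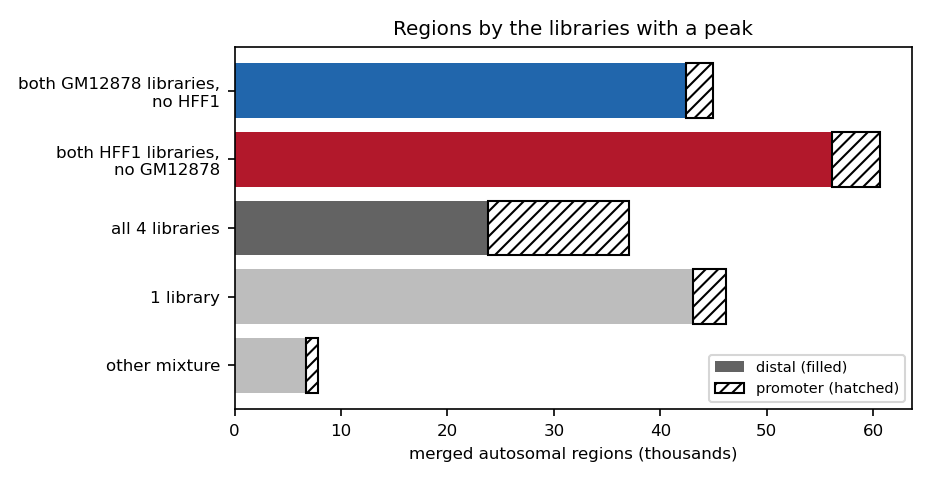
Number of merged autosomal regions (x axis, in units of 1000) by the libraries that had a peak (y axis). Filled bars are distal and hatched bars promoter regions. The 2 line-only classes are mostly distal, and promoters are most frequent among the 37067 regions open in all 4 libraries.

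Line-only distal regions were lower-ranked than shared ones, and narrower as merged. Their median merged width was 340 bp in GM12878 and 411 bp in HFF1, against 493 bp for shared distal regions. A shared region joins peaks of both lines, and a line-only region those of a single line. Merging alone can therefore widen shared regions, so these widths do not show that the peaks themselves differed in width. Within a library's list ordered by the authors' deposited −log10 p-value, GM12878-only distal regions had a median percentile of 43.0 and 44.2, against 65.8 and 66.6 for shared ones in the same lists. In HFF1 these were 50.1 and 47.0, against 66.8 and 64.9. They lay farther from start sites, by a median of 32973 bp in GM12878 and 40478 bp in HFF1, against 24392 bp for shared distal regions. About as many lay inside gene bodies, 54.4% and 52.3%, as of the shared regions, 50.0%.

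The 5 best-ranked GM12878-only distal regions included one in an intron of NR2C2, a nuclear receptor gene (chr3:14988951-14989565, summit reads 142 and 152), and one in MYO5A (153 and 157 reads), which encodes a myosin motor. The others lay in PGGT1B and TOPBP1, at annotated exons, and between genes nearest to TACR1. In HFF1 the best-ranked was between genes nearest to PPP2R5C (chr14:101927875-101928571, summit reads 95 and 96), followed by the KCNMA1 site shown above. Regions nearest to MN1 and FGD2 and one in an intron of MRPS22 made up the rest of the 5.

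The 16 consensus sequences were searched on both strands within 50 bp of summits, and the same letters read in reverse order gave a background. Reversal keeps the bases but not the pair CG. The reversed letters of OCT, C/EBP, nuclear factor I and CTCF gain such a pair, and those of ETS lose it. For these sequences the background is not matched for CG. In GM12878-only distal regions, 4.16% ± 0.0334 (SD, n = 2) held the PU.1 sequence GAGGAAGT, against 0.816% ± 0.0366 of HFF1-only ones. PU.1 is an ETS factor of blood cells. The SD here is between the summits of 2 libraries over the same regions. The ETS-IRF composite GGAANTGAA, bound by PU.1 or SPIB together with IRF4 or IRF8, was at 4.46% against 0.881%, and the OCT sequence ATGCAAAT at 2.66% against 0.619%. The letters GAAANTGAA of interferon regulatory factors were at 4.45% against 1.06%. These 4 had the highest ratios towards GM12878, from 4.21 to 5.10. For PU.1, the ETS-IRF composite and OCT the reversed letters were at 0.550%, 0.579% and 0.0507% in GM12878-only regions. For the IRF letters they were at 2.60%, closer to the forward share. In HFF1-only regions the reversed IRF letters were at 0.614%, so they too were more frequent in GM12878. They are therefore no neutral background for the IRF letters.

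On the HFF1 side, the TEAD sequence CATTCCA was in 4.48% ± 0.0126 (SD, n = 2) of HFF1-only and 0.749% ± 0.0384 of GM12878-only distal regions. TEAD proteins carry YAP and TAZ to DNA. In GM12878 that share was close to its reversed background of 0.628%. The C/EBP sequence TTGCNNAAT was at 3.47% against 1.19%, the AP-1 sequence TGAGTCA at 20.1% against 8.15%, and CTTGGCA of nuclear factor I at 2.79% against 1.52%. AP-1 was the most frequent of the 16 in both line-only distal classes, and in GM12878 too its share was 3.81 times the reversed background. Among the 5000 best-ranked HFF1-only distal regions, AP-1 letters were in 32.0%, and among the 5000 best-ranked of GM12878 the ETS-IRF composite was in 7.52%.

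Among the other sequences, RUNX letters TGTGGTT were in 6.76% of GM12878-only and 4.51% of HFF1-only distal regions, 4.53 and 4.25 times the reversed shares. EBF letters TCCCNNGGG were at 2.64% against 1.49%, with a reversed background of 1.31% and 0.801%. NF-kappaB letters GGGANTTTC were at 1.54% against 1.14%, and MEF2 letters CTATTTTTA at 0.362% against 0.371%. GATA letters AGATAAG, 1.20% and 0.845%, were near their reversed shares of 1.01% and 0.890% in both lines. The CTCF sequence CAGNGGGC, of the factor that holds chromatin loops, was in 11.2% of distal regions open in all 4 libraries, against 3.83% and 1.83% of the line-only ones. The ETS sequence CCGGAAGT, at 0.219% and 0.0856% in line-only distal regions, was in 4.53% of promoters open in all 4 libraries, and the GC-box GGGCGGGG in 20.6% of them, against 20.2% with its letters reversed.

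Line-only promoters repeated the same contrast at other levels. PU.1 letters were in 4.45% of GM12878-only and 0.730% of HFF1-only promoter regions, and OCT letters in 1.57% and 0.210%. AP-1 letters were in 9.54% of HFF1-only and 4.86% of GM12878-only promoters, and TEAD letters in 2.52% and 0.531%. Shares over all distal peaks of a library gave the same order with less contrast. AP-1 letters were in 8.35% ± 0.0705 (SD, n = 2) of distal peaks of GM12878 and in 16.2% ± 0.0313 of those of HFF1, and PU.1 letters in 3.09% and 3.04% against 0.894% and 0.860%. The highest share in one line was below the lowest in the other for both.

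**Figure D2:**
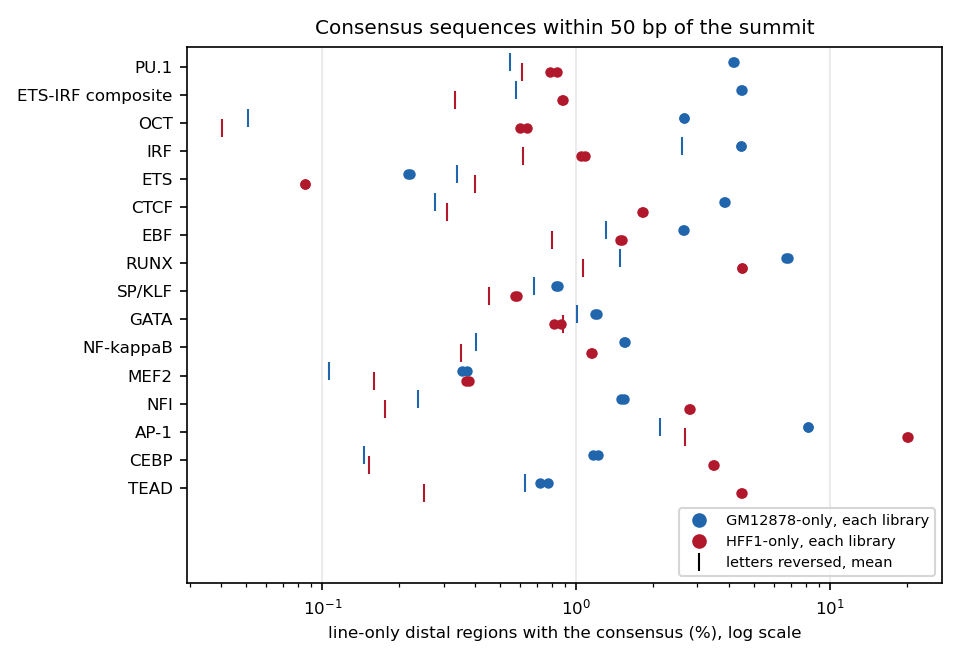
Share of line-only distal regions (x axis, %, log scale) with each consensus sequence (y axis) within 50 bp of the summit. Dots are the 2 libraries of a line and ticks the mean with the letters reversed. PU.1, ETS-IRF and OCT stand to the right in GM12878 and AP-1, C/EBP and TEAD in HFF1.

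Pairs of sequences within 50 bp of the same summit were mostly rarer than the product of their shares. The rest of each region was not searched, and in so short a window 1 sequence leaves less room for another. These shares therefore do not show that sequences avoid each other within regions. AP-1 and TEAD letters stood together in 0.706% and 0.722% of HFF1-only distal regions, where the product of shares was 0.906% and 0.898%. RUNX and PU.1 letters stood together in 0.196% and 0.215% of GM12878-only ones, against 0.280% and 0.282%. PU.1 and the ETS-IRF composite were together in 0.717% and 0.710%, against 0.187% and 0.184%, but the letters of these 2 can overlap. OCT and PU.1 letters stood together at the summits of 22 and 19 regions.

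Promoters of 595 genes, 3.11% of all, had a peak in GM12878 only, and those of 1334, or 6.98%, in HFF1 only. All 4 libraries had one at 12739 genes, or 66.7%, and 3445 genes had none. The best-ranked GM12878-only promoters were at NCKAP1L, a haematopoietic actin regulator (summit reads 143 and 155), KHDRBS2, DAPP1, an adaptor of B-cell receptor signalling (139 and 147), and TESPA1, an adaptor of antigen receptor signalling (113 and 118). SMIM6, HLA-DQB1, STXBP2, which serves granule release in lymphocytes, HCLS1, HOOK1 and PSD4 completed the 10. In HFF1 the best-ranked were ZFP37 (98 and 90 reads), TMC7, ZNF354C (95 and 92) and ZNF879 (91 and 93). LRRC17, C1S, a complement protease gene (99 and 86), TMEM144, LTBR, INTU and OSMR, the oncostatin M receptor (103 and 110), followed. The LTBR promoter shares its window with another gene. ZFP37, ZNF354C and ZNF879 encode zinc-finger proteins, and the genes of the last 2 are both on chromosome 5.

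Genes with a line-only promoter differed between the lines in base composition at the gene's annotated 5′ end. The open start site of a gene can lie elsewhere, as at MMP2, so these values do not always describe the open promoter. Within 500 bp of the gene's 5′ end, the observed over expected frequency of CpG had a median of 0.263 at GM12878-only genes, 0.603 at HFF1-only genes and 0.758 at genes open in all 4 libraries. Values under 0.4, typical of promoters without a CpG island, were found at 71.6% of GM12878-only genes, 36.6% of HFF1-only genes and 12.7% of genes open in all 4 libraries. Over all genes the share was 29.0%, and at genes with no promoter peak in any library it was 74.4%, near that of GM12878-only genes. Among GM12878-only genes, MS4A1 was at 0.105, PTPRC at 0.0769 and CD53 at 0.0825, but IKZF1 was at 1.02 and SYK at 0.775. Among HFF1-only genes, the transcription factor genes MSX2 at 0.979, FOXC2 at 0.981 and TWIST1 at 0.860 were CpG-rich, whereas FAP at 0.0858, COL5A2 at 0.108 and MMP1 at 0.155 were CpG-poor.

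The 319 autosomal genes of 15 lists were then read, and every count stands beside the shares over all genes given above. Of 22 genes of the B-cell receptor and B-cell surface, 12 were open in GM12878 only and none in HFF1 only. Among them, MS4A1, the CD20 antigen, had 123 and 117 summit reads and SLAMF7, a surface receptor, 86 and 97, with no peak in either HFF1 library. BLK, a B-cell kinase, had 49 and 47, and TNFRSF17, the BCMA receptor of plasma cells, 76 and 85. The other 10 were 9 genes open in all 4 libraries and FCRL1, open in none. CD22 had 90 and 88 reads in GM12878 and 39 and 32 in HFF1, but the lines differed in start site: 2 of its start-site clusters had peaks in GM12878 only, and the HFF1 peaks lay at another, upstream one that had a peak in GM12878 replicate 1 but not in replicate 2.

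B-cell transcription factors behaved otherwise, since 16 of 18 had a promoter peak in all 4 libraries. The exceptions were SPI1, which encodes PU.1 (93 and 90 reads in GM12878), and IKZF1, which encodes the lymphoid factor Ikaros (54 and 53), both GM12878-only. Summit reads over the 12739 genes open in all 4 libraries were higher in both GM12878 libraries than in both HFF1 libraries at 78.2% and the reverse at 11.7%, with a median ratio of 1.35, so reads at a promoter are set beside these. All 10 reference genes had higher reads in GM12878, with a median ratio of 1.48. A gene's reads in a library are those of its highest-ranked promoter peak, which can lie at different start sites in different libraries. At 1 start site open in all 4 libraries, which 12629 genes had, the shares were 78.8% and 11.2%, and counts of a list that this changes are given both ways. IRF4 had 105 and 111 reads against 26 and 25, IRF8 119 and 118 against 32 and 22, and RUNX3 157 and 148 against 41 and 53. SPIB had 97 and 99 against 31 and 23. The median ratio of the 16 was 1.54, against 1.48 for the reference genes. In 12 of the 16 both GM12878 libraries were above both HFF1 libraries, near the 78.2% of all shared genes. BACH2, a repressor of plasma cell genes, with 33 and 31 reads against 63 and 57, and POU2F2, which encodes OCT2, with 79 and 79 against 86 and 86, went the other way. POU2F2 had a further start-site cluster open in all 4 libraries, with 108 and 104 reads against 77 and 66.

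Genes of antigen presentation by MHC class II split in the same manner. HLA-DQA1, HLA-DQB1, HLA-DRB1 and HLA-DRB5 had a promoter peak in GM12878 only, and the other 9 of 13 in all 4 libraries. HLA-DRB1 and HLA-DRB5 are similar in sequence, and the presence of HLA-DRB5 varies between haplotypes, so the reads of each are uncertain. At the other 9, summit reads of both GM12878 libraries were above both of HFF1, with a median ratio of 2.85. The peaks of HLA-DOB lay at different start sites in the lines, and at the 8 genes with a start site open in all 4 libraries the ratio was 2.69. CD74, the invariant chain, had 164 and 155 reads against 24 and 20, and HLA-DRA 102 and 94 against 27 and 17. CIITA, the master regulator of the class, had 109 and 116 against 40 and 39.

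Leukocyte signalling genes were open in GM12878 only at 12 of 29 promoters and in HFF1 only at none. They included PTPRC (CD45, 60 and 70 reads), SYK (67 and 65), the phosphatase genes PTPN6 (116 and 96) and INPP5D (114 and 120), and CD53 (106 and 93). The kinase gene LYN and PLCG2 were open in all 4 libraries, LYN with 132 and 137 reads against 75 and 63 at the same start site, and PLCG2 with 116 and 130 against 37 and 41. The 17 genes open in all 4 had a median ratio of 1.69, against 1.48 for the reference genes. Reads of GM12878 were above HFF1 at 14 of them, near the 78.2% of all shared genes, and below at ITGB7. At the same start site, which 14 genes had, these were 12 genes and ITGB7, whose other shared start-site cluster had 54 and 49 reads against 32 and 26.

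NF-kappaB and activation genes were open in all 4 libraries at 15 of 22 promoters, and at all 15 the GM12878 reads were above those of HFF1. Their median ratio of 1.53 was close to the 1.48 of the reference genes. GM12878-only were CD70, CD86, LTA, CCL22 and FCER2. CD86, a costimulator of T cells, had 62 and 63 reads and CD70 114 and 103. LTB, lymphotoxin beta, was open in HFF1 only, with 75 and 65 reads. TNF had 117 and 111 reads in GM12878 and 18 in HFF1 replicate 1, with no peak in replicate 2. The subunit genes NFKB1, NFKB2, REL, RELA and RELB were open in all 4.

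Of 15 autosomal cytokine and chemokine receptor genes, IL2RA, IL2RB, CCR6 and S1PR4 were GM12878-only and none was HFF1-only. IL2RB had 123 and 124 reads and CCR6, a lymphocyte chemokine receptor, 49 and 42. Of the other 11, GPR183 was open in 3 libraries and 10 in all 4. CXCR4 was among the 10, with 92 and 95 reads against 23 and 25. Reads of GM12878 were above HFF1 at 8 of the 10, near the 78.2% of all shared genes, and below at 1. The median ratio of the 10 was 2.07, against 1.48 for the reference genes. At the same start site, GM12878 reads were above at 7 and below at CCR10, with 63 and 69 reads against 93 and 80.

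On the fibroblast side, 17 of 32 matrix genes had a promoter peak in HFF1 only and none in GM12878 only. Collagen genes among them were COL3A1, COL5A1, COL5A2, COL6A2, COL6A3 and COL8A1. COL5A1 had 100 and 91 summit reads, COL6A2 86 and 70, and COL3A1 36 and 28. The enzymes that cut or cross-link matrix were MMP1, MMP2 (109 and 92), MMP14 (92 and 80), LOXL1 (110 and 91) and LOXL2 (93 and 84). TIMP3, an inhibitor of such proteases, had 79 and 79, and TNC, the glycoprotein tenascin C, 73 and 52. Both chains of collagen type I were open in all 4 libraries, COL1A1 with 108 and 103 reads in GM12878 against 86 and 75, and COL1A2 with 46 and 39 against 111 and 105. Reads of both HFF1 libraries were above those of GM12878 at 6 of the 11 matrix genes open in all 4, and below at COL1A1 and SERPINH1. Over all genes open in all 4 libraries, these directions were found at 11.7% and 78.2%.

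Surface and growth factor receptor genes were HFF1-only at 6 of 20. These were FAP, the cadherin genes CDH2, CDH11 and CDH13, EGFR (95 and 85 reads) and AXL (96 and 87). The other 14 had a peak in all 4 libraries, and at 12 of these the reads of HFF1 were above those of GM12878, a direction that 11.7% of all shared genes had. At the same start site these were 10 of 14, with GM12878 above at 3 in place of 1. TGFBR2, a receptor of TGF-beta, had 32 and 39 reads in GM12878 and 109 and 98 in HFF1, and PDGFRA 39 and 53 against 87 and 80.

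Mesenchymal transcription factor genes were HFF1-only at 10 of 33. These were TWIST1 (102 and 82 reads), TWIST2, TBX2, TBX3 (104 and 99), TBX5, FOXC2, FOXF2, OSR1, MSX2 and SIX2 (108 and 100). All 4 libraries had a peak at 20. Of these, HFF1 reads were above at 10 and GM12878 reads at 8. Over all genes open in all 4 libraries, these directions were found at 11.7% and 78.2%. Among the 8 was ZEB1, a repressor also used in lymphocytes, with 121 and 124 reads against 50 and 35. SNAI2 had 24 and 27 against 72 and 63, and GLI3, a hedgehog effector, 26 and 29 against 86 and 75 at the same start site. At the same start site, which 19 of the 20 had, HFF1 reads were above at 9 and GM12878 reads at 9. Over all genes with such a start site, the shares were 11.2% and 78.8%.

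Actin and contractile genes were mostly shared, with TAGLN, TPM2 and FLNC HFF1-only and 17 of 22 open in all 4 libraries. CNN3, a calponin gene, had 13 and 17 reads in GM12878 and 112 and 91 in HFF1. VIM, the vimentin gene, had 118 and 119 against 121 and 91. AP-1 and TEAD-YAP genes were open in all 4 at 18 of 22. FOS, JUN, FOSL1 and JUNB were shared, BATF, the AP-1 partner of IRF4, was GM12878-only (61 and 63 reads), and CCN2 and ANKRD1, targets of YAP, were HFF1-only. At the same start site, reads of GM12878 were above at 11 of the 18, such as FOS (117 and 114 against 98 and 89) and JUN (140 and 150 against 109 and 94). Reads of HFF1 were above at 6, such as TEAD1 (53 and 46 against 115 and 90) and YAP1 (40 and 29 against 95 and 94). Over all genes with such a start site, these directions were found at 78.8% and 11.2%. Ligands and antagonists of the TGF-beta, BMP, WNT and FGF pathways were HFF1-only at 5 of 25, namely GREM1, SFRP1, DKK3, IGF2 and IGFBP5, and open in all 4 at 17. IGF2 shares its promoter window with another gene. All 10 reference genes, such as ACTB and GAPDH, were open in all 4 libraries.

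Distal regions near listed genes were counted as well. Over all genes, the median number of line-only distal regions within 100 kb of the 5′ end was 3 for GM12878 and 4 for HFF1, with more of GM12878 at 41.2% and more of HFF1 at 46.1% of genes. B-cell transcription factors had medians of 8 and 5, and 14 of 18 had more of GM12878. B-cell receptor genes had more of GM12878 at 19 of 22, class II genes at 11 of 13, and leukocyte signalling genes at 25 of 29. Genes of a list that lie side by side, such as HLA-DPA1 and HLA-DPB1, share regions and are not separate counts. Cytokine and chemokine receptors had medians of 13 and 5, and 13 of 15 had more of GM12878. Matrix genes had medians of 2.50 and 13, and 31 of 32 had more of HFF1. Mesenchymal transcription factors had 2 and 12.0, with more of HFF1 at 30 of 33. Reference genes had 6 and 6.50, with 3 and 4 of the 10 on either side. Lists of other lineages were uneven too. Epithelial and endothelial markers had medians of 3 and 7, with more of HFF1 at 14 of 18, and T, NK and myeloid cell markers had 5.50 and 3, with more of GM12878 at 8 of 18 and more of HFF1 at 4.

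**Figure D3:**
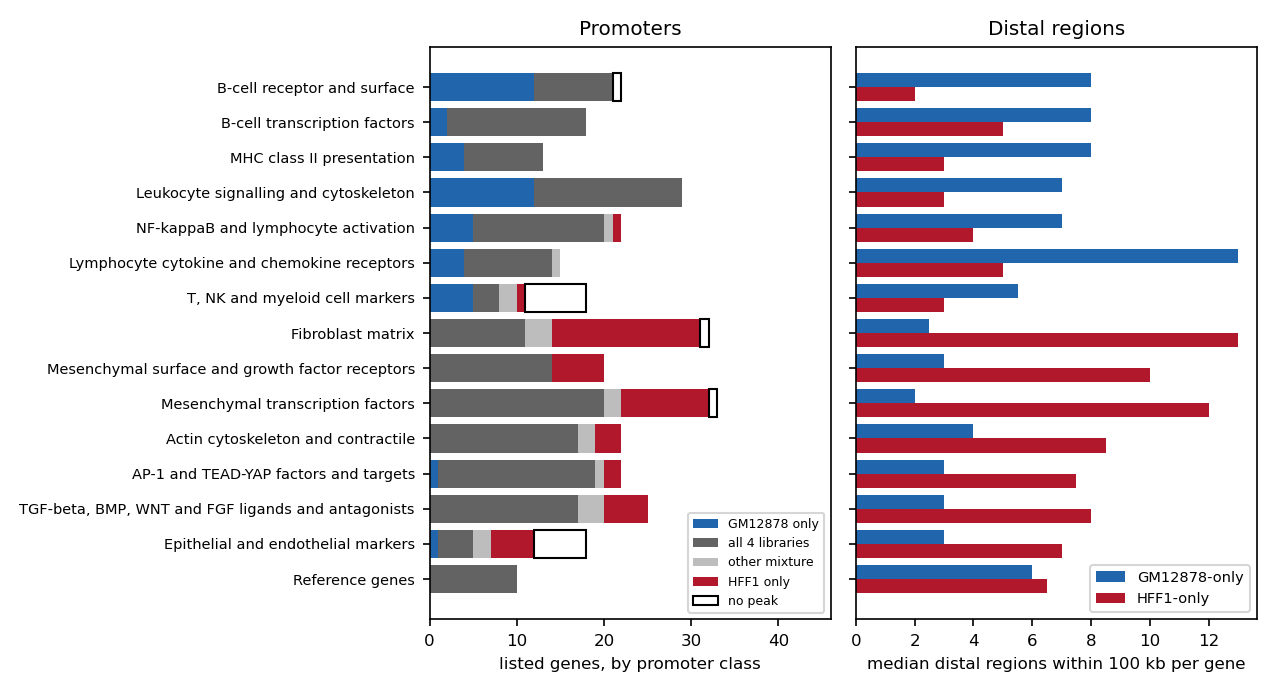
Left, listed genes (x axis, number) by promoter class for each list (y axis). Right, the median number of line-only distal regions within 100 kb of a gene's 5′ end. Transcription factor lists are mostly grey on the left and uneven on the right, where matrix genes have medians of 2.50 and 13 and reference genes 6 and 6.50.

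Single genes had larger contrasts. IKZF1 had 19 GM12878-only and 0 HFF1-only distal regions within 100 kb, CD86 had 22 and 0, CXCR4 19 and 0, CD48 20 and 0, IKZF3 17 and 0 and IRF4 23 and 5. In the same span, COL5A1 had 3 and 26, FBLN1 0 and 21, TBX3 0 and 19, TIMP3 0 and 16, COL6A1 1 and 20, CNN3 0 and 20 and GLI3 0 and 17. Neighbouring genes within 100 kb of each other share such regions, so CD48 and SLAMF7, for example, are not separate counts. Some listed genes went against their list. ETS1, which encodes a lymphocyte ETS factor, had 5 GM12878-only and 17 HFF1-only regions, PRDM1 2 and 8, BACH2 3 and 8, MMP14 12 and 6 and ZEB1 7 and 2.

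**Figure D4:**
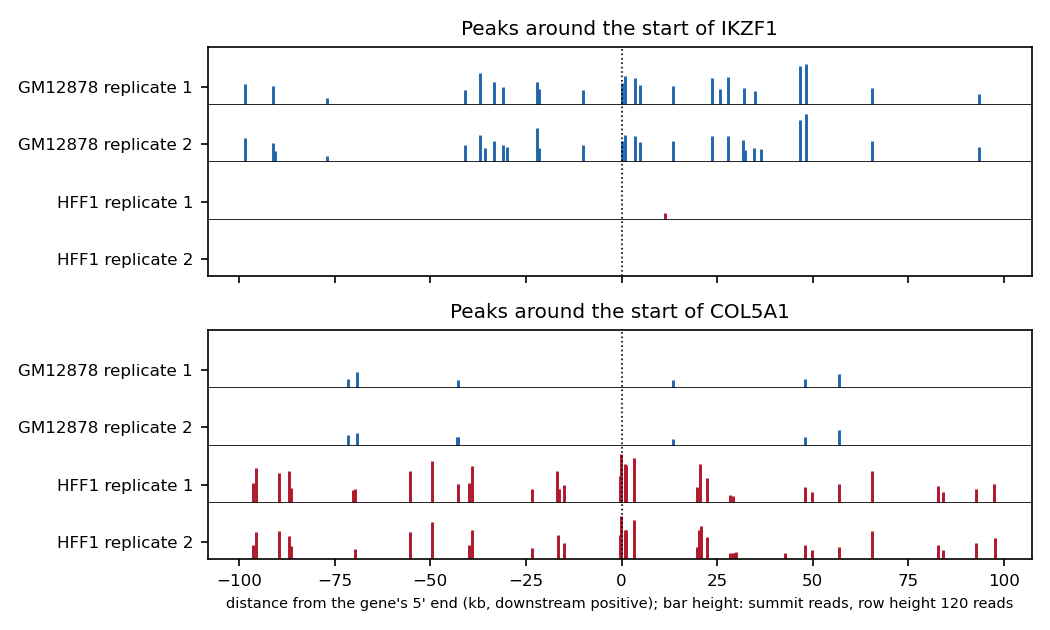
Peaks of the 4 libraries (rows) by distance from the 5′ end of IKZF1 and COL5A1 (x axis, kb), with bar height for summit reads. Around IKZF1 the GM12878 libraries have 24 and 28 peaks and the HFF1 libraries 1 and 0, and around COL5A1 they have 6 and 7 against 34 and 35.

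The same held over all genes with a line-only promoter. GM12878-only genes had a median of 5 GM12878-only and 3 HFF1-only distal regions within 100 kb, and 60.8% had more of GM12878 against 29.1% with more of HFF1. HFF1-only genes had 2 and 5, and 67.1% had more of HFF1 against 22.5%. Without either HFF1 library, the median difference at GM12878-only genes was 1 in place of 2. Genes open in all 4 libraries had medians of 4 and 4.

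**Figure D5:**
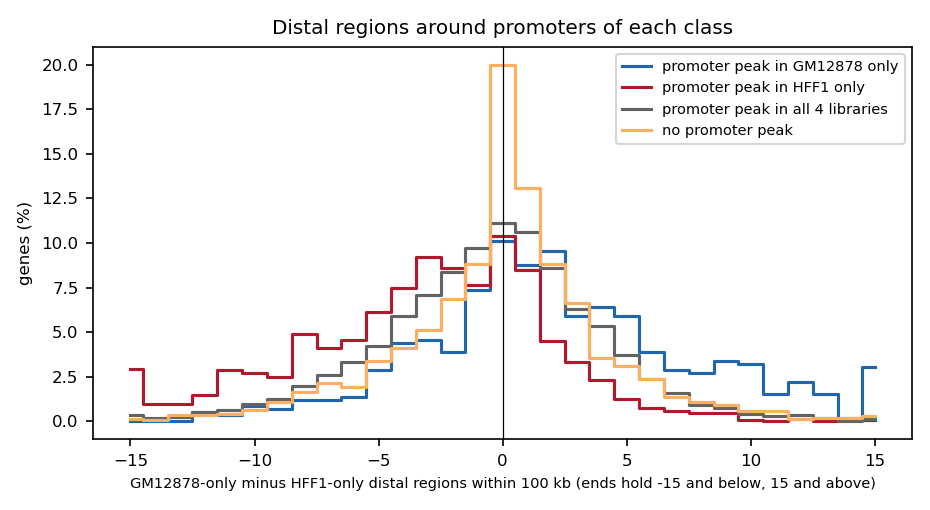
Distribution of genes (y axis, % of the class) over the number of GM12878-only minus HFF1-only distal regions within 100 kb (x axis), for 4 promoter classes. GM12878-only genes lie towards positive and HFF1-only genes towards negative values, with medians of 2 and -3, and the classes overlap widely.

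Counted by the nearest start site, long genes led in both lines. AUTS2, a gene of 1195211 bp, was nearest to 53 GM12878-only and 6 HFF1-only distal regions. LTBP1, which binds latent TGF-beta, was nearest to 2 and 35, NAV1 to 2 and 34 and NFIA, a nuclear factor I gene, to 5 and 34. FRMD4A had 30 and 39, KCNMA1 26 and 40, ARHGAP26 27 and 36 and PALLD 24 and 38, so these long genes were high in both. All of them had a promoter peak in all 4 libraries.

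Line-only regions were also dense in particular megabases. The largest excess in GM12878 was at 106000001 to 107000000 on chromosome 14, with 69 GM12878-only and 0 HFF1-only regions, in the immunoglobulin heavy chain locus. On chromosome 22, 22000001 to 23000000 had 51 and 6, with IGLL5 and VPREB1 of the lambda light chain locus as nearest genes. On chromosome 1, 160000001 to 161000000 had 63 and 13, around the SLAM family genes LY9, CD84, SLAMF1, SLAMF6 and SLAMF7. The other 2 lay at AUTS2 on chromosome 7 (50 and 0) and near DLGAP1 on chromosome 18 (42 and 0). In HFF1, the window with TNC on chromosome 9 had 6 and 81, the one with TEAD1, MICAL2, PARVA and DKK3 on chromosome 11 had 11 and 86, and the one with TBX3 and TBX5 on chromosome 12 had 0 and 66. Those with COL6A3 on chromosome 2 (18 and 79) and with FOXF1, FOXL1 and FOXC2 on chromosome 16 (12 and 73) followed.

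At 159 genes the lines had peaks at different start sites: at least 1 start-site cluster was open in GM12878 only and another in HFF1 only. They were 2.08% of the 7631 genes with more than 1 cluster. The median distance between the 2 start sites was 20875 bp, the upstream one was open in GM12878 at 78 and in HFF1 at 81, and 92 of the genes had a further promoter open in all 4 libraries. LSP1, a leukocyte actin-binding protein, had a GM12878-only promoter at chr11:1849904-1851904 (folds 4.57 and 4.30) and an HFF1-only one at chr11:1862246-1866165 (folds 12.8 and 10.9). GSN, which encodes the actin-severing gelsolin, had an upstream promoter open in GM12878 only (folds 9.84 and 10.1) and one 78558 bp downstream open in HFF1 only (5.58 and 6.49), beside another promoter open in all 4 libraries. NEDD4L, MACROD2, ATOSA, ADA2, VOPP1, PRLR, TTC39B and VGLL4 completed the 10 with the best-ranked pairs. Of the listed genes, LSP1, PIK3CD, TBX15, GLI3, PALLD, TCF4, WNT5B and HLA-DOB were among the 159. The other 67 of the 159 had no promoter open in all 4 libraries. Beside a start-site cluster open in all 4 libraries, IRF8 had one open in GM12878 only (93 and 92 reads), and so did POU2AF1, which encodes OBF1 (24 and 34 reads).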

How the data were processed

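Bulk ATAC-seq of 4 libraries was used. Per the submitters' processing notes, reads were handled with cutadapt 3.2, Bowtie2 2.4.2, Picard and MACS2 2.2.7.1, and the builds named are hg38 and mm10. The read shift, duplicate handling and calling options are not given in the sources used here. The authors deposited 1 peak list per library, so replicates were not pooled, with a fold (a linear ratio to local background), −log10 p-value, −log10 q-value, score and summit offset for each peak. The lowest deposited −log10 q was 2.00 to 2.05. Deposited folds and ranks served only to describe peaks of their own list. No peak passed the end of a GRCh38 chromosome.

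From the files, fold and −log10 p were solved together for a whole number of summit reads and a local background, which matched within 0.01 for 100% of peaks in each list. These reads were set side by side between lines. They are not scaled to depth, carry no molecular identifiers and are no count of independent molecules. Start sites were those of protein-coding transcripts in GENCODE release 44 (75845 sites). Measures per library were tested with exact two-sided permutation tests, where 2 against 2 allows no p below 0.333. Region, gene and list counts are descriptions with no test. Python 3.11.15, pandas 2.3.3, scipy 1.17.1 and pysam 0.24.0 were used, and scripts were tested on simulated data. Ranks are by the lower −log10 p of the 2 replicates. The genes named are members of the 15 lists, the 10 best-ranked line-only promoters, the 5 best-ranked distal regions, the 10 genes nearest to most line-only distal regions, the 10 best-ranked genes with different promoters, and the 5 windows of 1000000 bp with the largest excess, per line where that applies. The members and lists were chosen with earlier results of these data known. Sex chromosomes were left out, and P2RY8 with them. A promoter sequence that the rule chose is not reported here.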

Additional observations from a re-analysis of the deposited data

Results flagged for a closer look

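Peaks on contigs outside the assembled chromosomes entered no comparison, and numbered 72 and 70 in the GM12878 libraries and 74 and 62 in the HFF1 libraries. They are given because they are signal outside the autosomal measurement, without control libraries to compare with.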

How the results depend on the processing

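Of 297 values over 29 results and their alternatives, 290 kept their direction and, for counts, stayed within 1.5 times the value reported, 6 moved and 1 reversed. With the 80000 best-ranked peaks per library, the share of peaks at promoters was higher in HFF1 by 0.635 percentage points in place of lower (a difference of -0.783), and HFF1-only distal regions numbered 35411 in place of 56081. With gene 5′ ends only in place of all start sites, GM12878-only promoter regions numbered 1215 and HFF1-only ones 2596, because fewer windows count, and the median difference of distal regions at GM12878-only promoter genes was 1.00. Leaving out each library in turn gave 1.00 to 3.00 for that median, with 1.00 without HFF1 replicate 1 or 2, and the cause was not tested. Leaving out libraries gave 657 to 707 GM12878-only and 1445 to 1524 HFF1-only promoter genes, more than with all 4 since fewer libraries must agree. Permuting within pairs of equal replicate number, as a replicate block, gave an exact p of 0.500 for all 20 measures, the smallest it can give, and the labels do not say that a number marks a shared culture or day. Peak numbers at equal length, and genes with different promoters under 5′ ends only, have no value by construction. Depth limits the absence of a peak: scaling summit reads to the background of the shallowest library left 42395 GM12878-only and 56001 HFF1-only distal regions. This scaling can only remove called peaks and cannot restore any missed in a shallower list. It therefore does not show how far depth shapes the line-only counts. Reads taken at 1 shared start site, an alternative chosen after seeing the data, moved 3 of 32 list counts by over 1.5 times.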

Other observations

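Promoters of genes of other lineages were not all closed. Of 18 T, NK and myeloid cell markers, 5 were open in GM12878 only, namely CD3D and CD3G, which share a window (24 and 28 reads), CD28 (44 and 34), NKG7 (36 and 40) and MPO (24 and 27). CSF1R, the receptor of macrophage colony-stimulating factor, was open in HFF1 only, with 78 and 67 reads. CD28, a costimulatory receptor of T cells, had 3 GM12878-only and 13 HFF1-only distal regions within 100 kb although its promoter was open in GM12878 only. CD2, CD3E, CD4, CD33, LYZ, GNLY and FCGR3A had no promoter peak in any of the 4 libraries, and CD2 had 12 GM12878-only and 7 HFF1-only distal regions within 100 kb. Of 18 epithelial and endothelial markers, GRHL2 (18 and 17 reads), KRT19, KDR (29 and 22), TEK and ERG (30 and 23) were HFF1-only and PECAM1 (59 and 62) GM12878-only.

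Chromosome 19 was the only autosome with more GM12878-only than HFF1-only regions, 1263 against 1122, or 53.0% of line-only regions against 42.6% over all autosomes. Chromosome 21 was at the other end with 405 against 775, or 34.3%. This was noticed after the values were seen and was not tested.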
